A study of Mus musculus with 2 samples.

Results

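Shh, which encodes the secreted signal sonic hedgehog, and 8 genes of its release and reception were followed through single cells of the male mouse adrenal cortex. The 9 genes were taken by symbol from the 31057 features of the deposited tables. They are Shh and its releaser Disp1, the receptors Ptch1 and Smo, the co-receptors Boc, Cdon and Gas1, the decoy receptor Hhip, and the transcription factor Gli1. Cells were grouped by their levels of Cyp11b2, Cyp11b1 and Aldh1a1, and each gene's level was compared between those groups, to ask which cells hold the signal and which hold genes to receive it.

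As background, a hedgehog-producing cell releases the lipid-modified protein through the transporter Disp1. In a receiving cell, hedgehog binds Ptch1 with the help of Boc, Cdon or Gas1, which relieves the block on Smo and turns on GLI transcription factors. Ptch1, Gli1 and Hhip are themselves standard targets of the pathway. In the adrenal, Shh is known from cells of the outer steroidogenic cortex, and Gli1 from the mesenchymal capsule that surrounds it.

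The adrenal glands came from male SF1-Cre; Rosa mTmG mice aged 15 weeks, of which 26 glands were dissociated in the study. SF1-Cre is active in the steroid-producing lineage, and the mTmG reporter changes from membrane tdTomato to membrane GFP where Cre has acted. Every library carries both alleles, labelled WT, with no other genotype or treatment in the series. Cells positive for the DNA dye Ruby and negative for DAPI were sorted and profiled with a 3′ droplet kit (version 3.1) in 2 libraries. The sources used here do not say which animals went into which library. With a library term in the test, p-values measure how far class differences varied between these 2 libraries, with spread shared over genes. That variation may be technical.

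Library 1 held 92905273 UMIs (unique molecular identifiers, each counting an RNA molecule) in 5040 barcodes, and library 2 held 28023733 in 2288. Filtering kept 4695 and 1975 cells with medians of 18198 and 14825 UMIs, and 4 barcodes occurred in both libraries. Of these, 4337 and 1580 cortical cells with at least 5000 UMIs were placed in 6 classes by CPM (UMI counts of a gene scaled to a common total). Cyp11b2-high cells (470 and 230) had at least 200 CPM of aldosterone synthase, and Cyp11b1-high cells (530 and 287) at least 800 CPM of the corticosterone-producing 11β-hydroxylase. Cyp11b1-intermediate cells (383 and 128) lay between 300 and 800 CPM. Co-expressing cells (34 and 17) reached 200 CPM of Cyp11b2 and 300 CPM of Cyp11b1, and cells low in both (2892 and 893) reached neither. Aldh1a1-high cells (28 and 25) had at least 500 CPM of a retinaldehyde dehydrogenase and were taken out first. The classes are ranges, not cell types: 296 and 84 cells lay within 20% of the Cyp11b2 limit, and reads of the close paralogs Cyp11b1 and Cyp11b2 may be shared. All 5 cortex markers were detected in every class, with summed levels from 13453 to 23042 CPM.

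A leukocyte class (94 and 74 cells) served as the level of background RNA. Its levels of the steroidogenic genes Star and Cyp11a1 were 20.2% and 28.4% of the cortical level in library 1 and 8.56% and 8.91% in library 2. Its eGFP level was not low, at 2713 and 3184 CPM, against 1309 to 4533 CPM in the 6 cortical classes. Few cells of the capsule were present: 2 cells of library 2 and none of library 1 were classed as capsule or stroma, although this class had to outweigh the cortical genes.

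Shh was found at 164 CPM or more in 5 of the 6 cortical classes, and its lowest level among these 5 by the mean of both libraries was in aldosterone synthase-rich cells. The gene (ENSMUSG00000002633, chr5:28456815-28467256, minus strand, GRCm38) had 29139 UMIs over the cortical classes. In Cyp11b2-high cells it stood at 212 CPM in library 1 and 194 in library 2. Cells low in both enzymes had 257 and 309 CPM, Cyp11b1-intermediate cells 278 and 361, and Cyp11b1-high cells 257 and 354. Each of the last 3 classes was above the Cyp11b2-high class in both libraries. Co-expressing cells did not keep an order, with 279 CPM in library 1 and 164 in library 2. By the mean of the libraries the order ran from Aldh1a1-high through Cyp11b2-high, co-expressing, low in both and Cyp11b1-high to Cyp11b1-intermediate. From Cyp11b2-high upward, the values of neighbouring classes overlapped. All 9 genes overlap at least 1 other annotated gene, for Shh 9530036O11Rik and Gm26894 on the opposite strand. Since the sources used here do not state whether counting used strand, such reads could be shared.

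**Figure D1:**
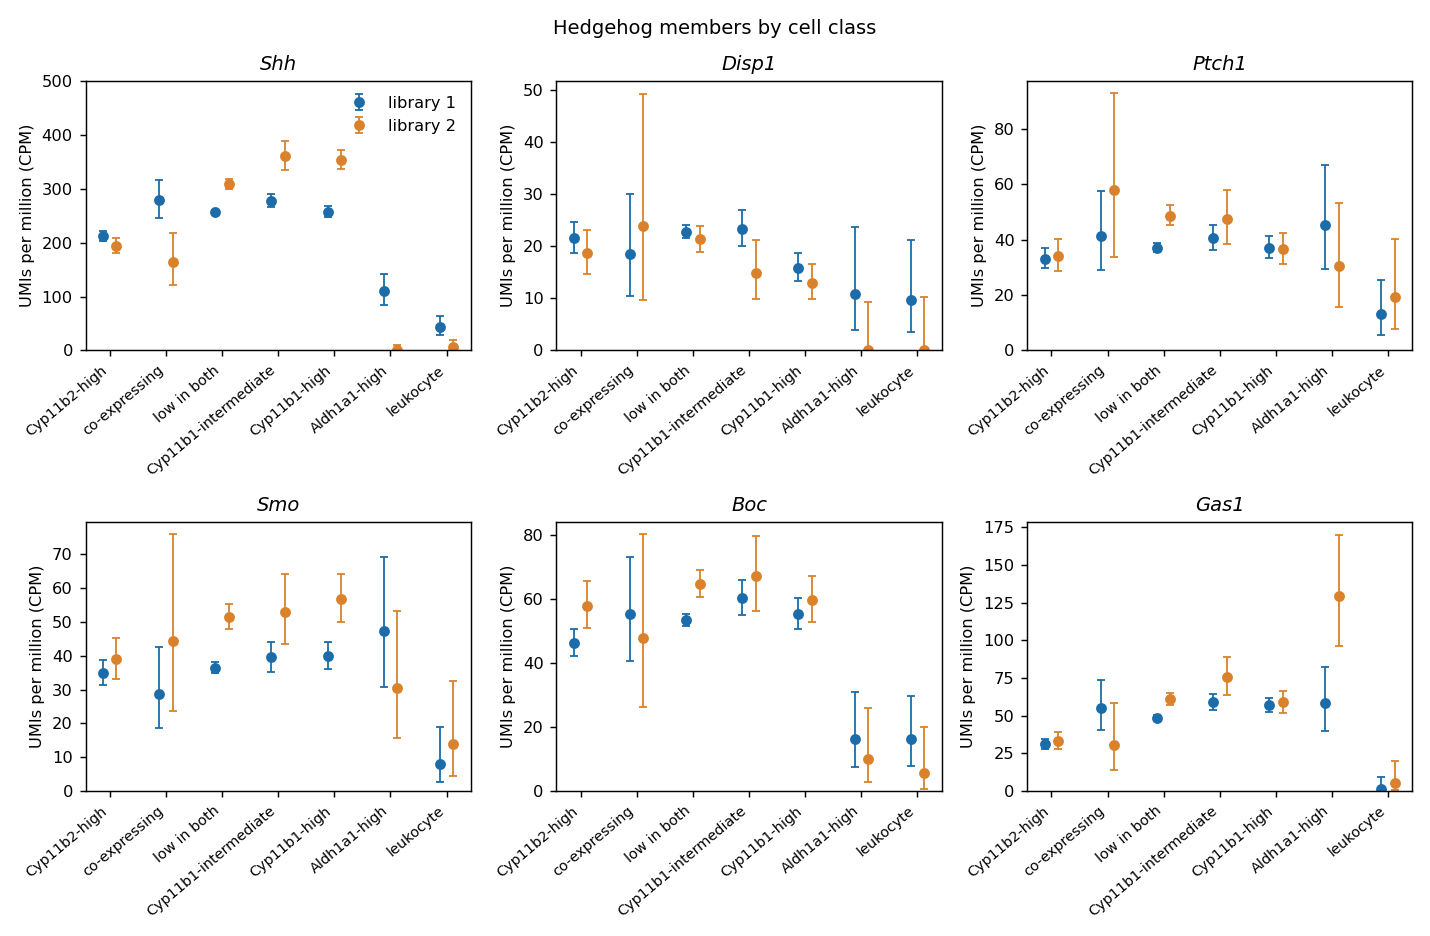
Level of 6 hedgehog genes (CPM, linear axis from 0) in the 6 cortical classes and in leukocytes. Points are the summed UMIs of a class in library 1 (blue) or library 2 (orange), bars are exact Poisson 95% intervals and cover counting error only. Shh lay between 164 and 361 CPM in the first 5 classes and at 111 and 0 CPM in Aldh1a1-high cells, while Gas1 was lowest near the Cyp11b2-high class.

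Shh was higher in Cyp11b1-bearing cells than in Cyp11b2-high cells by a modest amount. UMIs were summed per class and library, giving 12 sums, and 11786 genes were tested with edgeR's quasi-likelihood test with class and library terms. Cyp11b1-high cells exceeded Cyp11b2-high cells by 0.46 ± 0.15 (log2 difference ± SE, adjusted p = 0.0248 by edgeR), with 0.21 in library 1 and 0.78 in library 2. Cyp11b1-intermediate cells exceeded them by 0.52 ± 0.16 (adjusted p = 0.0302 by edgeR). Cells low in both gave 0.40 ± 0.14, which missed the threshold of 0.05 (adjusted p = 0.0773 by edgeR) but passed in 4 of 12 alternative analyses. Between Cyp11b1-high cells and cells low in both, the difference was 0.06 (adjusted p = 0.806). Not every method kept these calls: with DESeq2 the adjusted p-values for Cyp11b1-high and Cyp11b1-intermediate against Cyp11b2-high were 0.824 and 0.868, and without the library term 0.832 and 1. Over all 12 alternatives they ranged from 4.10e-11 to 0.832 and from 5.63e-12 to 1. All comparisons with Cyp11b2-high cells share that class's sums.

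**Figure D2:**
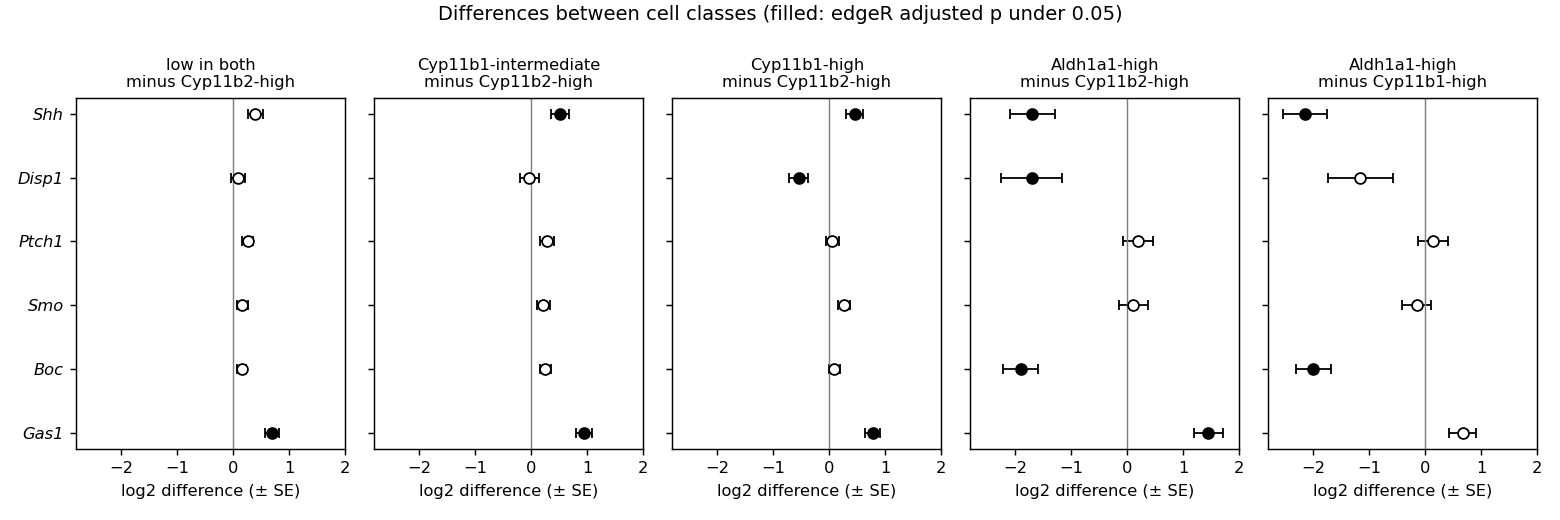
Log2 difference between classes (first minus second, ± SE) for the 6 hedgehog genes that passed the low-count filter, in 5 comparisons over 2 libraries. Filled points passed an edgeR adjusted p of 0.05. Gas1 lay to the right in every panel, Shh and Boc lay far to the left in Aldh1a1-high cells, and Ptch1 and Smo had no filled point.

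Shh was also lower at each step of rising Cyp11b2 per cell, given here as a description. Among cells with under 300 CPM of Cyp11b1, those with no Cyp11b2 UMI had 272 CPM of Shh in library 1 and 329 in library 2. With 1 Cyp11b2 UMI the levels were 237 and 271 CPM, and with 2 to 4 UMIs 235 and 254. Cells with 5 to 9 UMIs had 228 and 212 CPM, and cells with 10 or more had 210 and 151. Each step was downward in both libraries, and the whole decline was steeper in library 2; the difference between libraries was not tested. Median depth rose across these bins, from 17148 to 25811 UMIs in library 1 and from 15057 to 21357 in library 2, and its part in the result was not tested. Even so, 100 of the 107 cells with 10 or more Cyp11b2 UMIs in library 1, and 49 of 56 in library 2, held at least 1 Shh UMI. These counts were not thinned. Leukocytes, which serve as the background, had Shh at 43.8 and 5.56 CPM, and the part of free RNA in these counts was not tested.

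Across Cyp11b1 levels Shh did not move in 1 direction in either library. Among cells under 200 CPM of Cyp11b2, library 1 had 257 CPM of Shh at up to 100 CPM of Cyp11b1, 278 CPM at 300 to 800 and 210 CPM above 2000. Library 2 had 303, 361 and 343 CPM in the same bins. There, Shh rose at each step from 303 over 357 CPM at 100 to 300 to 370 CPM at 800 to 2000, and fell in the last bin. Thus the highest Cyp11b1 bin was the lowest of its series in library 1 but not in library 2.

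**Figure D3:**
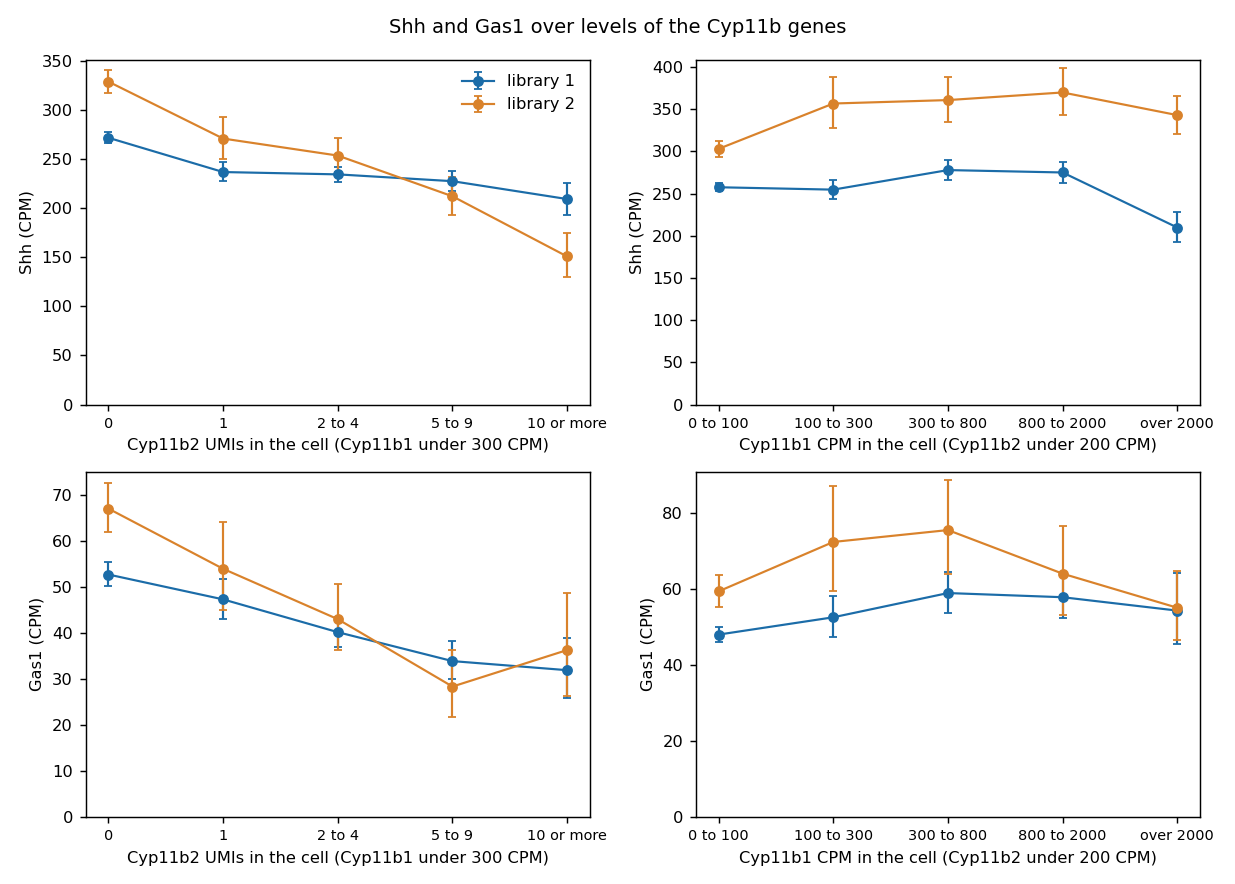
Level of Shh (top) and Gas1 (bottom), in CPM, over bins of Cyp11b2 UMIs per cell (left) and of Cyp11b1 CPM per cell (right), by library, with exact Poisson 95% intervals for counting error. Shh went from 272 to 210 CPM in library 1 and from 329 to 151 CPM in library 2 as Cyp11b2 rose. Over Cyp11b1, Shh in library 2 rose up to the bin of 800 to 2000 CPM and then fell, and in library 1 it went down and up.

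Most single cells of the cortical classes held Shh. After each cell was thinned to 5000 UMIs, a Shh UMI was found in 64.6% of the cortical cells of library 1 (63.2 to 66.1, exact 95% interval) and in 65.8% of those of library 2 (63.4 to 68.1). Unthinned, the shares were 90.8% and 88.0%. In leukocytes, which should lack the gene, thinned shares were 8.33% (4 of 48 cells) and 0% (0 of 27 cells, upper limit 12.8%), with median depths before thinning of 8835 and 6936 UMIs against 18623 and 16171 in cortical cells. Thinning left out 46 and 47 shallower leukocytes. By class, the thinned share was lowest outside Aldh1a1-high cells in the Cyp11b2-high class, at 56.2% and 56.1%. It was 61.5% and 65.9% in Cyp11b1-high cells and 66.5% and 69.0% in cells low in both. The leukocyte level of Shh was 43.8 CPM in library 1, where 10 cells held all 27 UMIs, and 5.56 CPM in library 2.

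Aldh1a1-high cells had the lowest Shh level of the cortical classes in both libraries, but by very different margins. In library 1 the class had 61 Shh UMIs (111 CPM), and in library 2 it had none in 25 cells, where 3 UMIs would equal 7.61 CPM. Shh was thus at least 25.5-fold higher in Cyp11b2-high cells and at least 46.5-fold higher in Cyp11b1-high cells of library 2, against a floor of 3 UMIs over the class. The same ratios in library 1 were 1.91 and 2.32. In the fit, Aldh1a1-high cells were lower than Cyp11b2-high cells by -1.69 ± 0.41 (log2, adjusted p = 0.00352 by edgeR) and than Cyp11b1-high cells by -2.15 ± 0.39 (adjusted p = 0.000511 by edgeR). Both calls were lost with DESeq2 (adjusted p = 0.221 and 0.155) and without the library term (0.129 and 0.106). They were kept in the other 10 alternatives, with the smallest adjusted p at 3.30e-22 and 2.49e-38. Of these 10, the Aldh1a1 limit of 2000 CPM was added after the data were seen.

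The Shh of the class lay in few cells. In library 1, 8 of the 28 cells held all of its Shh, and 5 cells held 53 of the 61 UMIs. Those 8 cells had a median of 1167 CPM of Aldh1a1 and 248 CPM of the inner-cortex exporter gene Abcb1b, against 3669 and 5217 CPM in the 20 cells without a Shh UMI. The signalling gene Wnt4, an outer-cortex marker, had medians of 421 and 0 CPM in the same groups. The 25 cells of library 2 resembled the second group, with medians of 4123 CPM of Aldh1a1, 8729 CPM of Abcb1b and 0 CPM of Wnt4. Setting the class at 2000 CPM of Aldh1a1, a limit added after the data were seen, left 16 and 23 cells with Shh at 27.6 and 0 CPM. With that limit the log2 difference was -4.14 from Cyp11b2-high cells and -4.56 from Cyp11b1-high cells. The 12 cells it left out in library 1 held 53 of the 61 Shh UMIs. The larger difference thus follows from the choice of limit and is no further support.

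Within Cyp11b1-high cells a minority had no Shh UMI. In this class 15.7% of cells in library 1 and 18.5% in library 2 had no Shh UMI, whereas a Poisson count with the class's mean level in every cell would leave 3.47% and 2.06%. The other classes with Shh also exceeded their Poisson share: Cyp11b2-high cells had 10.2% and 12.2% against 3.04% and 4.12%, Aldh1a1-high cells of library 1 had 71.4% against 16.8%, and cells low in both had 7.47% and 7.84% against 2.11% and 1.69%. The 83 and 53 Cyp11b1-high cells without a Shh UMI, a split made after the levels were seen and not tested, were shallower than the rest, with medians of 12453 and 10441 UMIs against 17686 and 15978. They held 585 and 326 CPM of Wnt4, against 1650 and 1339 in the cells with Shh. Abcb1b was at 669 and 1107 CPM against 42.0 and 52.8, and the steroid reductase gene Srd5a2 at 103 and 148 CPM against 7.37 and 9.88. Aldh1a1 was at 22.5 and 34.2 CPM against 1.45 and 6.76, and median Cyp11b1 at 1888 and 3403 CPM against 1358 and 2019. So in both libraries the cells with no Shh UMI, which were also the shallower ones, held less Wnt4 and more Abcb1b, Srd5a2 and Aldh1a1. Boc was lower in them too, at 32.4 and 18.6 CPM against 58.6 and 66.6, as was Ptch1, at 23.4 and 20.2 against 39.0 and 39.3. Disp1 was at 8.10 and 4.66 CPM, from 9 and 3 UMIs, against 16.9 and 14.3. The counting intervals of Disp1, Gas1 and Smo overlapped in both libraries. Those of Ptch1 overlapped in library 2 only, and those of Boc in neither library.

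**Figure D4:**
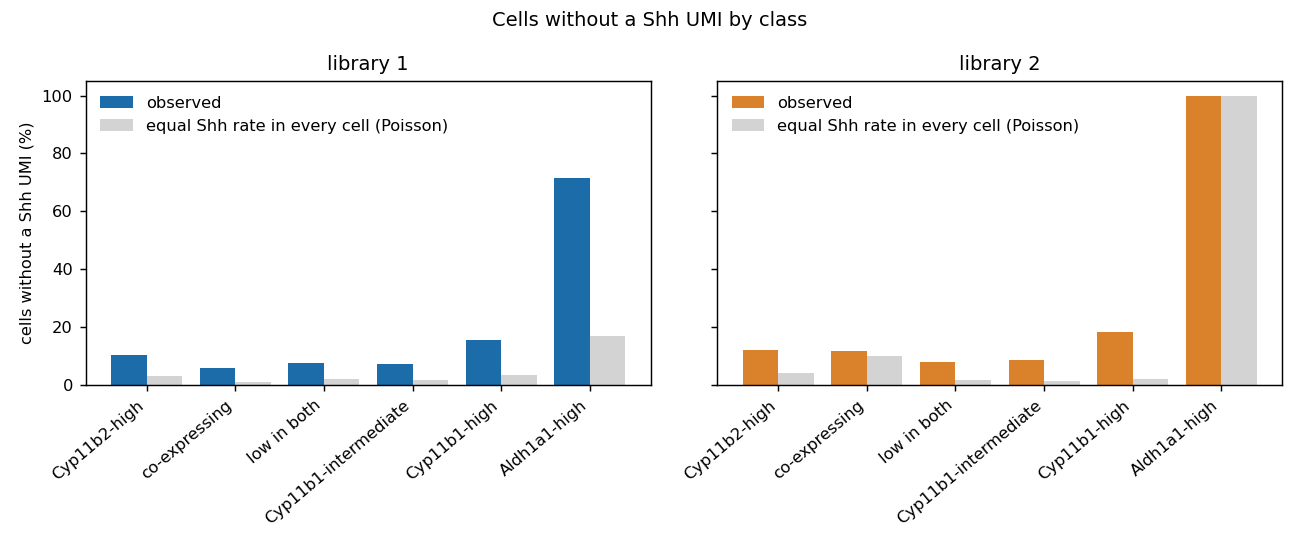
Share of cells without a Shh UMI (percent, axis from 0) in each cortical class of library 1 (left) and library 2 (right). Coloured bars are the observed share, and grey bars the share left by a Poisson count if every cell of the class had its mean Shh level. In the Cyp11b1-high class the observed shares were 15.7% and 18.5%, and in the Aldh1a1-high class 71.4% and 100%.

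Disp1, the transporter that releases hedgehog from producing cells, was lower in Cyp11b1-high and Aldh1a1-high cells than in Cyp11b2-high cells. The gene (ENSMUSG00000030768, chr1:183086266-183221522, minus strand, GRCm38) had 2337 UMIs over the cortical classes. The RefSeq table of promoters (GRCm38.p6) held 6 of the 9 hedgehog genes. The 250 bases upstream of a Disp1 start site are shown because Disp1 and Gas1 passed the test in opposite directions; they lie on the minus strand at chr1:183221530-183221779 and hold none of the 4 motifs searched.
Disp1: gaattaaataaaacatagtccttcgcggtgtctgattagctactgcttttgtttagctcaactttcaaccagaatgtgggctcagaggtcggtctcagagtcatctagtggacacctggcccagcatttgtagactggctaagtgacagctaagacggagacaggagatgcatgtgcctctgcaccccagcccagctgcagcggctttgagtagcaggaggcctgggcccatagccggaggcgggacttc
Disp1 stood at 21.6 CPM in Cyp11b2-high cells of library 1 and 18.6 in library 2, at 22.8 and 21.3 in cells low in both, and at 15.9 and 12.9 in Cyp11b1-high cells. Aldh1a1-high cells had 6 UMIs (10.9 CPM) in library 1 and none in library 2. The Cyp11b1-high values of both libraries were below those of Cyp11b2-high cells and of cells low in both. Cyp11b1-intermediate cells kept no order, with 23.4 CPM in library 1 and 14.8 in library 2. Their log2 difference from Cyp11b2-high cells was -0.04 (adjusted p = 0.930 by edgeR). Cyp11b1-high cells were lower than cells low in both by -0.63 ± 0.14 (log2, adjusted p = 0.00227 by edgeR) and than Cyp11b2-high cells by -0.54 ± 0.16 (adjusted p = 0.0154 by edgeR). Aldh1a1-high cells were lower than Cyp11b2-high cells by -1.70 ± 0.54 (adjusted p = 0.0240 by edgeR), and -1.16 ± 0.58 from Cyp11b1-high cells did not pass (0.211). The leukocyte level of Disp1 was 44.6% of the cortical level in library 1 and 0% in library 2, and an overlapping gene on the same strand, BC085271, leaves the count uncertain. Over 12 alternatives the first 2 calls were kept in 11 each (adjusted p from 1.27e-05 to 0.649 and from 0.00219 to 0.528) and the third in 10 (0.00111 to 0.126), with the highest p without the library term in each.

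On the receiving side, Ptch1, the hedgehog receptor, and Smo, the transducer it holds in check, were found in every cortical class, Ptch1 between 30.5 and 58.1 CPM and Smo between 28.8 and 56.8 CPM. Ptch1 (ENSMUSG00000021466, chr13:63508328-63573598) had 33.2 and 34.2 CPM in Cyp11b2-high cells and 37.1 and 48.8 in cells low in both. Cyp11b1-intermediate cells had 40.6 and 47.4 CPM, Cyp11b1-high cells 37.2 and 36.5, and Aldh1a1-high cells 45.5 and 30.5. No class was above or below all others in both libraries. Smo (ENSMUSG00000001761, chr6:29735503-29761365) ran from 34.8 and 38.9 CPM in Cyp11b2-high cells to 39.9 and 56.8 in Cyp11b1-high cells, with 47.3 and 30.5 in Aldh1a1-high cells.

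Neither gene passed in any of the 7 comparisons. Log2 differences lay between -0.20 and 0.41 for Ptch1 and between -0.16 and 0.26 for Smo, which does not show that the classes were equal. With all class limits doubled, Ptch1 passed in 3 comparisons: it was 0.42 higher in cells low in both and 0.46 higher in Cyp11b1-intermediate cells than in Cyp11b2-high cells, and 0.37 lower (log2 difference -0.37) in Cyp11b1-high cells than in cells low in both. Smo then passed in Cyp11b1-high against Cyp11b2-high cells, at 0.41. Leukocytes had 13.0 and 19.5 CPM of Ptch1, or 35.0% and 44.3% of the cortical level, and 8.12 and 13.9 CPM of Smo, or 22.0% and 27.8%. For both genes these shares were above those of Star in each library, but Smo in library 1 was below Cyp11a1, at 28.4%. The leukocyte levels rest on 8 and 7 Ptch1 UMIs and on 5 and 5 Smo UMIs. After thinning, 16.4% and 18.7% of cortical cells had a Ptch1 UMI against 6.25% (3 of 48) and 0% (0 of 27) of leukocytes, and 16.5% and 22.1% had a Smo UMI against 8.33% and 3.70%.

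Gas1, a membrane-anchored co-receptor, was lowest in Cyp11b2-high cells by the mean of the libraries and higher in the 4 other classes that could be told from it. The gene (ENSMUSG00000052957, chr13:60174405-60177365, minus strand, GRCm38) had 5612 UMIs. The 250 bases upstream of its RefSeq start site (chr13:60177536-60177785, minus strand, GRCm38.p6) hold a CCAAT box, in capitals, a motif found on either strand in 33.8% of the 32851 promoter windows of that length.
Gas1: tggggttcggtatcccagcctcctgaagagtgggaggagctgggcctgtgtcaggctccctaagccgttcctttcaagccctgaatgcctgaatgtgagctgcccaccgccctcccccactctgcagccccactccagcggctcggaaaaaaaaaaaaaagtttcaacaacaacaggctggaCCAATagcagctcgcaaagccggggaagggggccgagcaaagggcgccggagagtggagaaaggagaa
Searched on both strands were also the GLI motif GACCACCCA (0.225% of windows), the SF1 motif AAGGTCA (4.08%) and the cAMP response element TGACGTCA (1.55%). The last was found upstream of Hhip only, and the first and second in none of the 6 genes. Such a match is a description of the letters in this window.

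Gas1 stood at 31.0 CPM in Cyp11b2-high cells of library 1 and 33.0 in library 2. Cells low in both had 48.6 and 60.8 CPM, Cyp11b1-intermediate cells 58.9 and 75.5, and Cyp11b1-high cells 56.9 and 58.8. Aldh1a1-high cells had 58.3 and 129 CPM, from 32 and 51 UMIs. All of these values lay above both Cyp11b2-high values, whereas co-expressing cells had 55.4 and 30.8 CPM. Against Cyp11b2-high cells the log2 difference was 0.70 ± 0.12 in cells low in both (adjusted p = 0.000511 by edgeR) and 0.95 ± 0.14 in Cyp11b1-intermediate cells (8.01e-05). It was 0.78 ± 0.14 in Cyp11b1-high cells (adjusted p = 0.000146 by edgeR) and 1.44 ± 0.26 in Aldh1a1-high cells (0.000218). Without the library term the first 3 of these calls were lost (adjusted p = 0.621, 0.164 and 0.147, the highest of 12 alternatives), while the smallest values were 7.46e-11, 5.02e-14 and 4.99e-11. Aldh1a1-high cells exceeded Cyp11b1-high cells by 0.67 ± 0.24, which did not pass (0.0674) but passed in 6 of 12 alternatives. The difference was 0.04 in library 1 and 1.27 in library 2. In library 2, 5 of the 25 Aldh1a1-high cells held 30 of the 51 Gas1 UMIs, and 1 cell held 11.

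Gas1 was also lower over Cyp11b2 bins, going from 52.7 CPM in library 1 and 67.1 in library 2 with no Cyp11b2 UMI to 33.9 and 28.3 with 5 to 9 UMIs. With 10 or more UMIs it was at 31.9 and 36.3 CPM, so the last step was upward in library 2. Leukocytes had 1.62 and 5.56 CPM, from 1 and 2 UMIs, or 3.35% and 9.65% of the cortical level.

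Boc, an immunoglobulin-family co-receptor, went the other way from Gas1 in Aldh1a1-high against Cyp11b2-high cells. The gene (ENSMUSG00000022687, chr16:44485049-44558897) had 46.4 and 58.0 CPM in Cyp11b2-high cells, 53.5 and 64.9 in cells low in both, 60.5 and 67.3 in Cyp11b1-intermediate and 55.5 and 59.7 in Cyp11b1-high cells. Aldh1a1-high cells had 16.4 CPM (9 UMIs) and 10.2 CPM (4 UMIs), below every other class in both libraries. The log2 difference was -1.90 ± 0.32 from Cyp11b2-high cells (adjusted p = 9.62e-05 by edgeR) and -2.00 ± 0.31 from Cyp11b1-high cells (0.000108). The second call held in 12 of 12 alternatives and the first in 11, with an adjusted p of 0.0631 after thinning (2.36e-07 at the lowest). The Aldh1a1-high values were close to the 16.2 and 5.56 CPM of leukocytes. None of the other 5 comparisons passed for Boc. Cdon, a close relative of Boc in function, had 18 UMIs in all cortical classes, 15 of them in library 1, and was not tested.

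Hhip and Gli1, both targets of the pathway, were at or near 0 in the cortical classes. Hhip (chr8:79965851-80058006) had no UMI in the cortical classes or leukocytes of either library, where 3 UMIs over all cortical cells would equal 0.0351 CPM in library 1 and 0.117 in library 2. Gli1 (chr10:127329882-127341974) had 30 UMIs in cortical classes, 26 in library 1 (0.305 CPM) and 4 in library 2 (0.157 CPM). In library 1, its 27 UMIs over all kept cells came from 24 cells, of which 15 were low in both, 8 Cyp11b1-intermediate and 1 outside the cortical classes. None of the 470 Cyp11b2-high cells of library 1 and none of the 230 of library 2 had a Gli1 UMI. This was not particular to them: the 530 Cyp11b1-high cells of library 1 also had none. Co-expressing and Aldh1a1-high cells of both libraries and Cyp11b1-intermediate cells of library 2 had none either. In library 2, 5 cells held 1 UMI each, among them 1 of the 2 capsule or stroma cells. Those 2 cells, with 11189 UMIs together, also held 1 Hhip UMI and 15 Ptch1 UMIs. This put Ptch1 at 1341 CPM there (750 to 2211, exact Poisson 95% interval), far above its level in any cortical class, with no Shh UMI; 2 cells of 1 library allow no test. Arhgap9 overlaps Gli1 on the opposite strand, which leaves so low a count uncertain. Of the 11 capsule and stroma markers, Gli1 among them, 9 were detected in cortical classes of library 1 and 8 in library 2. Their summed levels were 144 and 158 CPM, with Lum and Pdgfrb at 0 in both libraries. In Cyp11b2-high and Cyp11b1-high cells of library 1 only 2 of them, Rspo3 and Nr2f2, were detected, with sums of 141 and 119 CPM.

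The called hedgehog genes are set here beside the share of all 11786 genes called in the same comparison. Of the 6 genes that passed the low-count filter, only Gas1 was called between cells low in both and Cyp11b2-high cells, where 11.6% of all genes were (5.05% higher and 6.53% lower). Shh and Gas1 were called in Cyp11b1-intermediate against Cyp11b2-high cells, with 14.7% of all genes (6.62% higher and 8.12% lower). Shh, Gas1 and Disp1 were called in Cyp11b1-high against Cyp11b2-high cells, with 31% (15.7% higher and 15.3% lower). Shh, Gas1, Boc and Disp1 were called in Aldh1a1-high against Cyp11b2-high cells, with 26.9% (13.7% and 13.2%). Disp1 was the gene called between Cyp11b1-high cells and cells low in both, with 22.7% (11.9% and 10.9%), and Shh and Boc were called in Aldh1a1-high against Cyp11b1-high cells, with 15% (8.28% and 6.7%). None was called in co-expressing cells, with 0.0255% (0.00848% and 0.017%). Since 6 genes are few, nothing particular to them follows from these counts.

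Receptor UMIs were found in cells with and without Shh. After thinning to 5000 UMIs, 58.1% of Shh-positive cortical cells in library 1 (exact 95% interval 56.2 to 59.9) also held Ptch1, Smo, Boc or Gas1, against 52.9% of cells without a Shh UMI (50.3 to 55.4). In library 2 the shares were 66.4% (63.4 to 69.3) and 61.4% (57.1 to 65.5). The intervals did not overlap in library 1 and did in library 2. These shares pool classes that differ in Shh and Gas1, and within a class the difference was not always seen. In Cyp11b2-high cells they were 47.0% against 47.6% in library 1 and 60.5% against 45.5% in library 2. In cells low in both they were 58.0% against 54.4% and 67.7% against 66.8%. In Cyp11b1-intermediate cells they were 64.7% against 53.6% in library 1 and 71.6% against 63.6% in library 2. Cyp11b1-high cells with Shh also had the higher share in both libraries. Co-expressing cells with Shh had the higher share in library 1 and the lower in library 2. Within each of these classes the intervals overlapped. For Boc alone, over all cortical classes, the share was 23.5% against 20.7% in library 1 and 28.3% against 22.4% in library 2. Ptch1 and Smo were found in the same cell in 3.42% of Shh-positive and 3.13% of Shh-negative cells of library 1, and in 4.33% and 4.44% in library 2. Cells of a library share their source, and these intervals cover counting error only.

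Among 48 other genes of the pathway, ordered by role, 33 were tested, 4 had no UMI in the cortical classes and 14 had fewer than 100. Between Cyp11b1-high and Cyp11b2-high cells 4 were higher, 6 lower and 23 did not pass, where 31% of all genes were called (15.7% higher and 15.3% lower), with a median log2 difference of 0.09 against 0.02 over all genes. The count is near that background and is no result about the list. Scube3, a secreted protein of the family that carries hedgehog from the cell, had the largest rise. Its normalised level was 18.3 and 24.7 CPM in Cyp11b1-high cells against 2.72 and 2.29 in Cyp11b2-high cells (log2 difference 2.98 ± 0.22, adjusted p = 2.07e-09 by edgeR). Dhh, another hedgehog ligand, rose from 0.653 and 0.459 to 2.44 and 2.45 normalised CPM (2.03 ± 0.55, adjusted p = 0.00742 by edgeR). These Dhh levels rest on 6 and 2 UMIs in Cyp11b2-high cells, and leukocytes had 1 UMI in each library.

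Some possible targets were lower. Ccnd2, a D-type cyclin gene, fell from 1681 and 1126 to 1235 and 762 normalised CPM (log2 difference -0.50 ± 0.11, adjusted p = 0.00139 by edgeR). Bcl2, a survival gene, was -0.72 ± 0.20 lower (adjusted p = 0.00824 by edgeR). Of the 4 possible targets tested, 3 were lower and none higher, where 15.3% of all genes were lower; 4 genes are too few to read as a group. Between Aldh1a1-high and Cyp11b1-high cells, none of the 33 genes was higher and 4 were lower, where 15% of all genes were called (8.28% higher and 6.7% lower), with a median of -0.45 against -0.05 over all genes. Ccnd1, another D-type cyclin gene, was at 110 and 5.12 normalised CPM against 378 and 210 (-2.21 ± 0.32, adjusted p = 5.33e-05 by edgeR), and Ccnd2 was -1.27 ± 0.14 lower (1.36e-06). These cyclin genes answer to many signals, and of the standard pathway targets only Ptch1 was high enough to test. Of the 13 tested genes of transduction 11 did not pass in the first of these comparisons, and of the 11 cilium genes 8 did not.

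The genes most like each hedgehog gene were ranked by Pearson's r of log2 CPM over the 12 class sums, which share libraries and depth, among 8058 genes. For Shh they were Ppat (r = 0.991), Cxxc4 (0.991) and Rnf32 (0.988). These rested on the Aldh1a1-high sums: over the other 10 sums r was 0.68, 0.87 and 0.52, and the leading genes were then Wwtr1 (0.986), Gcc2 (0.967) and Plin2 (0.952). For Gas1 the leader was Thra, a thyroid hormone receptor gene, with 0.948 over 12 sums; over 10 it had 0.951, just behind Hap1 (0.955). Boc was most like Diablo (0.991, and 0.86 over the 10 sums) and Disp1 most like Tle4 (0.990 and 0.84). Smo was most like Letm2 (0.907 and 0.87) and Ptch1 most like Dnmt1 (0.824 and 0.79). Over the 10 sums the leaders of these 4 genes were Lmnb1, Eif3m, Txndc16 and Rbpms in that order, so none kept its leading gene. Rnf32 lies 728.7 kb from Shh on chromosome 5, in a window of 1000 kb to either side that holds 12 protein-coding genes with Shh. Like Shh it was at 0 in Aldh1a1-high cells of library 2, with 9.10 CPM in library 1. Lmbr1, beside Rnf32, was at 9.10 and 20.3 CPM there.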

How the data were processed

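Droplet 3′ RNA profiles of sorted adrenal cells were analysed in 2 libraries of 1 group. The deposited values are UMI counts of each gene in each barcode, which the authors made using Cell Ranger and mm10, per the submitters' processing notes. The matrix header names version 3.1.0, per the file headers. Cell calling is not described in the sources used here.

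Barcodes under 1000 UMIs or 500 genes, or above 30% mitochondrial UMIs, were removed (148 and 276). The highest scrublet scores (scanpy 1.11.5) were removed at 0.8% per 1000 barcodes, 197 and 37 cells; doublets of like cells remain. Leukocytes had UMIs of at least 4 of 14 marker genes with 1000 CPM in sum, and cortical cells at least 5000 CPM over Star, Cyp11a1, Hsd3b1 and Cyp21a1. Cyp11b2-high cells also needed 2 Cyp11b2 UMIs. Free RNA was not subtracted.

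UMIs were summed per class and library and tested with edgeR 4.0.16 (R 4.3.3, TMM, its low-count filter, class and library terms, Benjamini-Hochberg over 11786 genes; 5 residual and 15.0 prior degrees of freedom, biological coefficient of variation 0.0541). Hhip, Cdon and Gli1 did not pass the filter. The script was tested on simulated data. Shares have exact Clopper-Pearson 95% intervals and levels exact Poisson ones; both cover counting error only.

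The members, classes and lists were chosen with earlier results of these data known. Of the list, the rule named the 2 called genes per direction with the largest difference in 2 comparisons. For likeness it took the 3 genes with the highest r that reached 20 CPM, leaving out gene models and class-defining genes; 1 to 3 per member are named. Marker lists were for cortex, outer and inner cortex, X-zone, leukocytes, capsule and stroma, endothelium, medulla and glia. Alternatives covered RLE factors, DESeq2 1.42.0, no filter, no library term, doublets kept, 15% mitochondrial UMIs, thinning to 5000 UMIs, cells from 1000 UMIs, class limits doubled and halved, a cortical limit of 10000 CPM and each library alone. An Aldh1a1 limit of 2000 CPM and likeness without Aldh1a1-high sums were added after the data were seen. Positions are from GENCODE vM21.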

Additional observations from a re-analysis of the deposited data

How the results depend on the processing

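Over the 12 alternatives beside leaving out a library, Gas1 above Cyp11b2-high cells in Aldh1a1-high cells and Boc below Cyp11b1-high cells there passed in every fit. For Shh, no library term (no replicate block) gave the same directions without a call: 0.56 for Cyp11b1-intermediate and 0.49 for Cyp11b1-high against Cyp11b2-high cells, -1.76 for Aldh1a1-high against Cyp11b2-high and -2.26 against Cyp11b1-high cells. DESeq2 gave 0.61, 0.55, -2.17 and -2.71 in that order, also without a call. With halved limits Cyp11b1-intermediate against Cyp11b2-high was 0.31 and not called. Shh in cells low in both against Cyp11b2-high became a call with no low-count filter (0.40), thinning (0.47), doubled limits (0.46) and the Aldh1a1 limit of 2000 CPM (0.39). The cause was not tested. Small Shh differences changed sign in co-expressing against Cyp11b2-high cells with thinning (-0.015) and in Cyp11b1-high against low in both with doubled limits (-0.015). Other reversals were also small: Boc in co-expressing cells with no filter (-0.018), no library term (-0.0074), cells from 1000 UMIs (-0.011) and halved limits (-0.043), in Cyp11b1-intermediate cells with halved limits (-0.0056), and in Cyp11b1-high against low in both with thinning (0.045). Disp1 reversed in cells low in both with thinning (-0.16) and halved limits (-0.061) and in Cyp11b1-intermediate cells with the cortical limit of 10000 CPM (0.025). Gas1 in co-expressing cells (-0.23) and Smo in Cyp11b1-intermediate cells (-0.095) reversed with thinning. Smo in Aldh1a1-high cells reversed against Cyp11b2-high with doubled limits (-0.084) and the Aldh1a1 limit of 2000 CPM (-0.30), and against Cyp11b1-high with halved limits (0.076).

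Leaving out a library gives values with no test. Shh ranged from -0.31 to 0.34 in co-expressing, and from -9.72 to -1.003 in Aldh1a1-high against Cyp11b2-high cells and -10.50 to -1.21 against Cyp11b1-high cells; the low ends use library 2, with no Shh UMI, and depend on the prior count of 2.

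With no library term the genes called numbered 5 (low in both), 1 (co-expressing), 108 (Cyp11b1-intermediate), 652 (Cyp11b1-high) and 1894 (Aldh1a1-high) against Cyp11b2-high, 146 for Cyp11b1-high against low in both and 659 for Aldh1a1-high against Cyp11b1-high. The main counts were 1365, 3, 1737, 3659, 3173, 2680 and 1766. Thinning gave 500, 7, 646, 1663, 1492, 1556 and 833 in the same order, from fewer UMIs, and DESeq2 643 and 14 for the first 2 and 1541 for Cyp11b1-high against low in both. The co-expressing count was 65 with no filter, 6 with doublets kept, 5 with cells from 1000 UMIs, 11 with halved limits, 1 with the cortical limit of 10000 CPM and 12 with the Aldh1a1 limit of 2000 CPM. With doubled limits the co-expressing class had too few cells and gave no value. Of the values for single genes under alternatives, 525 stayed the same, 16 reversed direction, 16 gained a call, 17 lost a call and 8 moved. Among the 525 are 34 values without library 1 and 42 without library 2, which have no test. Those were judged by distance from the main value, the rest by direction and side of the threshold. Depth limits most the Aldh1a1-high cells, with 549295 and 394050 UMIs in all, and the co-expressing cells, with 867236 and 292536.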

Other observations

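Dividing cortical cells, called by UMIs of 3 or more cell cycle genes in thinned counts, numbered 121 in library 1 and 37 in library 2. They held Shh at 223 and 308 CPM, against 254 and 295 CPM in the other cortical cells, so the direction differed between the libraries. Boc was at 45.6 and 42.7 CPM in them against 53.6 and 62.5, and Smo at 31.5 and 39.6 CPM against 37.1 and 50.4. Ptch1 was at 39.6 and 53.4 CPM against 37.0 and 43.7, and the counting intervals of these 3 genes overlapped in each library. Dividing cells made up 3.25% and 3.36% of cells low in both but 1.06% and 1.30% of Cyp11b2-high cells, from 5 and 3 cells.

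Cells that were neither cortical by the 5000 CPM limit nor leukocytes (49 and 45) still held Shh at 175 and 193 CPM, above the leukocyte level in both libraries. They had 21.5 and 18.0 CPM of Ptch1, 44.1 and 36.1 of Gas1 and 1211 and 1173 of Wnt4, but only 660 and 849 CPM of Star.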
